A study of Mus musculus with 20 samples.

Results

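Transcripts of 9 genes of gluconeogenesis and hepatic glucose control were examined in mouse liver: Pcx, Pck1, Fbp1 and G6pc of glucose synthesis, Gckr and Pklr of glucose breakdown, the glucose transporter Slc2a2, and Gys2 and Pygl of glycogen turnover. They were chosen by gene name from the 38924 genes of the expression table, and all 9 passed the filter on low values. The study used male C57BL/6J (WT) mice and TSP-1 knockout mice, both bought at 5 weeks of age and acclimated for 1 week. They were put on control chow or on CDAHFD for 12 weeks. CDAHFD is a high fat diet that lacks choline, is limited in methionine and supplies protein as defined amino acids. RNA was sequenced from 5 livers in each of 4 groups: NDWT (control diet, WT), NDKO (control diet, TSP-1 null), HFWT (CDAHFD, WT) and HFKO (CDAHFD, TSP-1 null). CDAHFD is used as a mouse model of steatohepatitis with fibrosis. The knockout is a germline allele bought as a line from the same supplier, so each genotype is 1 purchased line, and littermates were not stated. Mice had free access to chow under a light-dark cycle, and neither a fast before tissue collection nor its time of day was given in the sources used here.

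The livers held 15641545 to 23276322 fragments assigned to genes (median 18950482.5). Levels are given as FPKM, fragments scaled to gene length and to library size. Thbs1, the gene of TSP-1, read 1.30 ± 0.390 FPKM in NDKO and 0.197 ± 0.103 in NDWT (SD, n = 5). On CDAHFD it read 3.44 ± 0.547 in HFKO and 4.62 ± 1.22 in HFWT, and the ranges overlapped (3.05 to 4.40 and 3.46 to 6.10). The control diet livers labelled TSP-1 null therefore held more Thbs1 transcript than WT, against the label. The table gives 1 value per gene and cannot show whether a deleted part is missing, so genotype is used below as labelled. Hepatocyte markers summed to 32133 to 54254 FPKM in every liver, and 11 of the 12 listed were found in the table.

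Gluconeogenesis makes glucose from lactate, glycerol and amino acids, and in the fasted body the liver is its main site. Its own enzymes pass around the irreversible steps of glycolysis. Pyruvate carboxylase (Pcx) and phosphoenolpyruvate carboxykinase (Pck1) turn pyruvate into phosphoenolpyruvate, fructose bisphosphatase (Fbp1) acts in the middle of the pathway, and glucose-6-phosphatase (G6pc) releases free glucose. Glucagon and glucocorticoids are known to raise Pck1 and G6pc transcription and insulin to lower it. Pklr, the liver pyruvate kinase, runs the last step of glycolysis and is raised by carbohydrate feeding.

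The 9 genes lie on 8 chromosomes, and Pck1 is 55.0 Mb from Thbs1 on chromosome 2. Pcx overlaps Lrfn4 on the opposite strand, Pklr overlaps Hcn3, Slc2a2 overlaps 1700112D23Rik and Pygl overlaps F730035M05Rik. None of these 4 neighbours exceeded 3.58 FPKM in a liver, and whether counting used strand was not stated. The 250 bases before each RefSeq start (GRCm38.p6) were searched on both strands for 5 motifs, and 8 of the 9 genes had a promoter entry. Stretches are printed for Pck1, the most abundant transcript of the group, for G6pc, whose transcript fell most on CDAHFD, and for Slc2a2, which rose on CDAHFD in the null mice. All 3 are on the plus strand and read 5′ to 3′, and capitals mark motif matches. Bases that GENCODE annotates as exon were left out, except in the 30 bases shown for G6pc, which GENCODE places in an untranslated exon part and RefSeq places before the start.
Pck1, chr2:173152823-173153047: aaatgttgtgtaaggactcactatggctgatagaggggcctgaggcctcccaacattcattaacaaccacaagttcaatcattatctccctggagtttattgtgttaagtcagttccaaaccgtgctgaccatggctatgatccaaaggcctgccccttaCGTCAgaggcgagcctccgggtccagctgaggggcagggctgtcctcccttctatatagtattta
G6pc, chr11:101367686-101367715: aTATAAAacaggggcaaggcacagactgat
Slc2a2, chr3:28697653-28697902: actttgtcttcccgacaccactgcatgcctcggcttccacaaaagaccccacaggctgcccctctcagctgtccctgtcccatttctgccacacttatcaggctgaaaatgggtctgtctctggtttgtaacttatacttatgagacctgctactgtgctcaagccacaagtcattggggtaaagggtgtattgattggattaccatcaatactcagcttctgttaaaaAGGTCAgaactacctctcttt
The Pck1 stretch held the core of a cAMP response element (TGACG, here as its reverse complement) 90 to 86 bases before the RefSeq start at 173153073. Glucagon is known to act on Pck1 through such an element. G6pc held a TATA box (TATAAA) 29 to 24 bases before its start, and Slc2a2 a nuclear receptor element (AGGTCA) 21 to 16 bases before its start. Of 32851 promoter windows of this length, 17.8% held TGACG, 14.0% held AGGTCA and 12.4% held TATAAA. Among the 10 windows found for these 8 genes, 2 held TGACG, 4 held AGGTCA and 2 held TATAAA. The forkhead motif TGTTTAC was in 0 of the 10 windows and 3.17% of all, and the E-box CACGTG in 1 and 6.02% of all. Each match is a description of letters and not a shown binding site.

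**Figure D1:**
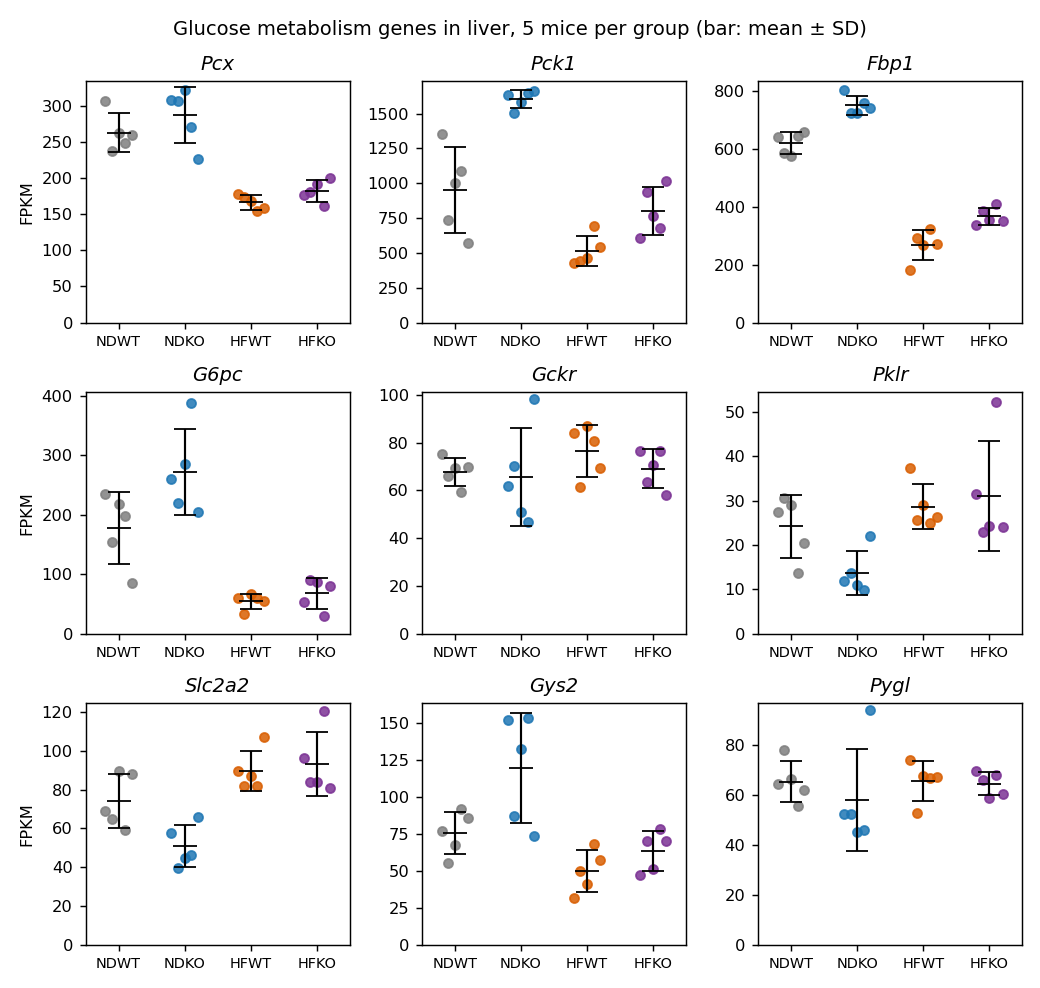
FPKM (linear axis from 0) of the 9 genes in the 4 groups, 1 point per liver, with the mean and SD of 5 mice as the bar. Pcx, Fbp1 and G6pc lay lower in all 10 CDAHFD livers than in the control diet livers of the same genotype. Pklr, Slc2a2, Gckr and Pygl had their lowest group means in NDKO.

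The first question was what 12 weeks of CDAHFD did to these transcripts. All 4 gluconeogenic enzymes fell in WT livers and again in TSP-1 null livers, by 1.57-fold (Pcx) to 4.19-fold (G6pc in the null mice). Gys2, the liver glycogen synthase, fell in both genotypes as well. Pklr and Slc2a2 rose in the null livers, and Gckr and Pygl passed the test in neither genotype. A gene was called when limma gave a Benjamini-Hochberg adjusted p (FDR, over the 14524 genes tested) under 0.05 and a log2 fold change beyond 0.58 in either direction.

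In WT livers 5 of the 9 genes were called, 5 lower and 0 higher, where 48.8% of all tested genes were called, 44.1% higher and 4.62% lower. In null livers 7 of the 9 were called, 5 lower and 2 higher, where 45.9% of all tested genes were called, 41.9% higher and 4% lower. The groups did not overlap for 3 of the 9 genes in WT and 6 in null livers, beside 56.2% and 57.8% of all tested genes. The median log2 change of the 9 genes was -0.63 in WT and -0.65 in null livers, beside medians of 0.53 and 0.50 over all tested genes. Most genes called with CDAHFD were thus higher, and the 5 lower calls stood on the less common side. FPKM are shares of a library, so a change is relative to the other transcripts. In bulk liver, fewer hepatocytes and less transcript per hepatocyte cannot be told apart.

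Pck1, which commits oxaloacetate to glucose synthesis, read 1356, 733, 1005, 1088 and 569 FPKM in the 5 NDWT livers and 428, 443, 464, 694 and 539.6 in HFWT. In NDKO it read 1637, 1505, 1587, 1648 and 1659 FPKM, and in HFKO 608, 941, 768, 677 and 1013. NDKO livers were all at 1505 FPKM or above with little spread, the NDWT livers ranged widely, and HFWT and NDWT overlapped. The log2 change with CDAHFD was -0.85 in WT (SE 0.19, FDR 6.05e-04 by limma) and -1.03 in null livers (SE 0.19, FDR 9.11e-05). The second of these comparisons had no overlap between its groups.

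Fbp1, which removes a phosphate from fructose 1,6-bisphosphate, read 639, 584, 573, 643 and 659 FPKM in NDWT and 182, 291, 267, 322 and 270.4 in HFWT. The NDKO livers gave 802, 724, 722, 758 and 741 FPKM, and in HFKO 336, 385, 353, 409 and 351. Each group occupied its own range, in the order NDKO, NDWT, HFKO, HFWT from high to low. The log2 change with CDAHFD was -1.24 in WT (SE 0.11, FDR 5.62e-09 by limma) and -1.03 in null livers (SE 0.11, FDR 7.70e-08).

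G6pc, the last enzyme of glucose output, read 235, 155, 218, 197 and 84.8 FPKM in NDWT and 59.9, 33.0, 66.0, 59.7 and 54.2 in HFWT. NDKO values were 261, 219.7, 285, 388 and 204 FPKM, and in HFKO 53.2, 91.0, 86.9, 29.3 and 80.4. The diet groups did not overlap within either genotype, although the lowest NDWT liver (84.8) lay below 2 of the HFKO livers. G6pc had the largest diet change of the 9 genes in both genotypes, with log2 -1.66 in WT (3.15-fold lower, SE 0.31, FDR 7.50e-05 by limma) and -2.07 in null livers (4.19-fold lower, SE 0.31, FDR 6.39e-06).

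Pcx, the mitochondrial entry step, read 307, 237, 263, 248 and 259 FPKM in NDWT and 178, 174, 168, 154 and 158 in HFWT. In NDKO it read 309, 306, 322, 271 and 226 FPKM, and in HFKO 176, 181, 191, 161 and 200.2. The CDAHFD livers lay close together and below all control diet livers. The log2 change was -0.65 in both genotypes (SE 0.09; FDR 2.79e-06 in WT and 3.37e-06 in null, by limma).

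Gys2, which lengthens glycogen chains, read 76.6, 55.5, 67.7, 91.6 and 85.9 FPKM in NDWT and 32.0, 49.6, 40.9, 68.5 and 57.4 in HFWT. The NDKO livers gave 152, 86.8, 133, 153 and 73.8 FPKM, and in HFKO 47.4, 70.0, 51.1, 78.0 and 70.5. The ranges of the diet groups overlapped in both genotypes. The log2 change was -0.63 in WT (SE 0.23, FDR 0.0176 by limma) and -0.88 in null livers (SE 0.23, FDR 0.00178). The WT call lay near the fold threshold and was lost without NDWT 4 (-0.55), NDWT 5 (-0.58), HFWT 1 (-0.48) or HFWT 3 (-0.57).

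Pklr read 27.4, 30.5, 29.1, 13.7 and 20.4 FPKM in NDWT and 37.4, 25.6, 29.1, 25.1 and 26.3 in HFWT. NDKO values were 11.8, 13.8, 10.9, 9.82 and 22.0 FPKM, and in HFKO 31.4, 22.9, 24.4, 52.3 and 24.2. All HFKO livers were above all NDKO livers, while the WT diet groups overlapped. The log2 change was 1.16 in null livers (2.24-fold, SE 0.25, FDR 3.65e-04 by limma) and 0.28 in WT (SE 0.25, FDR 0.311).

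Slc2a2, the hepatocyte glucose transporter GLUT2 that carries glucose in both directions, read 69.2, 64.9, 89.8, 59.4 and 88.1 FPKM in NDWT and 89.8, 82.1, 87.2, 82.0 and 107 in HFWT. In NDKO it read 57.5, 39.8, 45.0, 46.5 and 66.1 FPKM, and in HFKO 96.5, 84.0, 84.1, 121 and 80.7. All HFKO livers were above all NDKO livers, as for Pklr. The log2 change was 0.88 in null livers (1.84-fold, SE 0.15, FDR 2.34e-05 by limma) and 0.28 in WT (SE 0.15, FDR 0.0850).

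Gckr encodes the regulatory protein that holds glucokinase in the nucleus, and Pygl the liver glycogen phosphorylase. Gckr ranged from 59.2 to 75.1 FPKM in NDWT and from 61.4 to 86.8 in HFWT, and Pygl from 55.5 to 78.0 and from 52.5 to 73.9. Their log2 changes with CDAHFD were 0.16 and 0.01 in WT and 0.12 and 0.21 in null livers (SE 0.15 each, FDR 0.225 or above by limma). The 95% interval for Pygl in WT ran from -0.31 to 0.33, which leaves room for changes of that size.

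**Figure D2:**
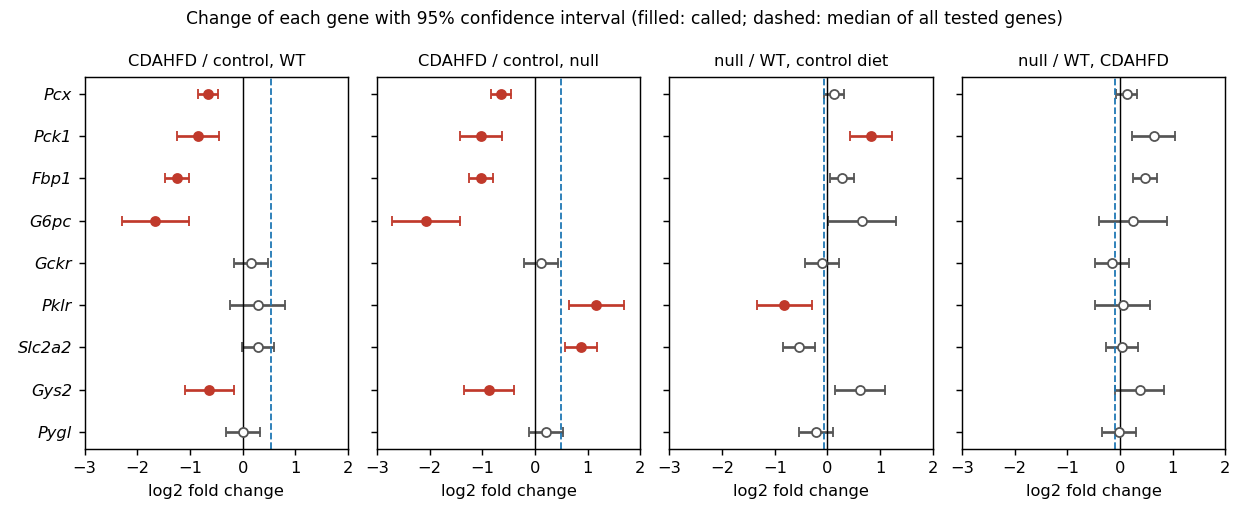
Log2 fold change of each gene in 4 comparisons (points, with 95% confidence intervals from limma), filled where called, with the dashed line at the median of all tested genes. Pcx, Pck1, Fbp1, G6pc and Gys2 lay to the left of 0 in both diet comparisons, and on control diet Pck1 (0.82) and Pklr (-0.82) were called in opposite directions.

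The scaling between libraries bears on these diet values, because it moved the median of all genes from 0.53 in WT to -0.01 with median of ratios scaling, -0.06 with quantile normalization and 0.92 with scaling to the hepatocyte markers. All 5 lower genes stayed below 0 under each of these scalings in both genotypes, and Fbp1 and G6pc stayed called. Scaled to the hepatocyte markers, Pcx (-0.25 in WT and -0.23 in null), Pck1 (-0.44 in WT) and Gys2 (-0.23 and -0.47) lost their calls, and Pklr and Slc2a2 (both 0.69) were called higher in WT and Pygl (0.63, FDR 7.81e-04) in null livers. Quantile normalization ended the calls of Pcx (-0.54 and -0.55) and Pck1 (-0.53 and -0.28). Median of ratios scaling turned the WT changes of Gckr (-0.40), Pklr (-0.27), Slc2a2 (-0.28) and Pygl (-0.55) below 0. It ended the Slc2a2 call in null livers (0.34).

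Markers of other cell types moved with the diet in both genotypes. Over all tested genes 44.1% were higher and 4.62% lower in WT, and 41.9% and 4% in null livers. Stellate cell and fibroblast markers were higher for 7 of 7 genes in both genotypes, with summed levels of 8.30 to 13.1 FPKM in NDWT and 114 to 244 in HFWT. Macrophage markers were higher for 6 of 8 in WT and 7 of 8 in null livers, with 1 lower in each (193 to 263 FPKM in NDWT and 1003 to 1376 in HFWT). Cholangiocyte markers were higher for 5 of 5 in both genotypes, and 3 of 11 hepatocyte markers were lower in each. Their part in the changes of the 9 genes was not tested, beyond the scaling to hepatocyte markers given above. Of the markers of tissues that could be cut along with liver, Slc34a1, Slc5a2 and Umod of kidney and Prss2, Cpa1, Pnlip and Amy2a5 of pancreas had at most 3 fragments in every liver.

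The second question was whether these transcripts differed between livers labelled TSP-1 null and WT on the same diet. On control diet, where Thbs1 itself went against the label, Pck1 was higher and Pklr lower in the livers labelled null, each by 1.77-fold. On CDAHFD, where the Thbs1 ranges of the genotypes overlapped, 0 of the 9 genes were called. The control diet comparison shares its groups with the diet comparisons above, so NDWT and NDKO values enter both.

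On control diet 2 of the 9 genes were called, 1 higher and 1 lower, where 4.77% of all tested genes were called, 1.74% higher and 3.03% lower. Pck1 was 950.3 ± 308 FPKM in NDWT and 1607 ± 63.4 in NDKO, with no overlap (log2 0.82, SE 0.19, FDR 0.00832 by limma). The groups of 2 of the 9 genes, Pck1 and Fbp1, did not overlap, beside 9.03% of all tested genes. The Pck1 call was lost only with quantile normalization among the alternatives run (0.62, FDR 0.0659).

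Pklr was 24.2 ± 7.07 FPKM in NDWT and 13.7 ± 4.89 in NDKO (log2 -0.82, SE 0.25, FDR 0.0353 by limma), and the ranges overlapped through NDWT 4 and NDKO 5. The call depended on single libraries. It was lost without NDWT 1 (-0.76), NDWT 2 (-0.73), NDWT 3 (-0.74), NDKO 1 (-0.79), NDKO 2 (-0.84), NDKO 3 (-0.76) or NDKO 4 (-0.72). It was also lost with no filter on low values (FDR 0.0655), with only these groups in the fit (FDR 0.0791), with quantile normalization (FDR 0.0717) and with the replicate block (FDR 0.0615).

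Slc2a2 gave log2 -0.55 in the null livers on control diet (SE 0.15, FDR 0.0174 by limma), under the fold threshold and so not called. It was called with scaling to hepatocyte markers (-0.74, FDR 0.00163) and without NDWT 2 (-0.59), NDWT 4 (-0.62) or NDKO 1 (-0.60). Scaling to hepatocyte markers moved the median of all tested genes here from -0.07 to -0.24. With it the genes called lower went from 440 to 1158. The markers used include Cps1 and Hpd, which were themselves called higher in NDKO. The other gluconeogenic enzymes gave log2 values of 0.66 for G6pc (FDR 0.172), 0.28 for Fbp1 (FDR 0.102) and 0.12 for Pcx (FDR 0.427). Gys2 gave 0.63 (FDR 0.0753), Pygl -0.22 (FDR 0.377) and Gckr -0.10 (FDR 0.739). The median over the 9 genes was 0.12, beside -0.07 over all tested genes. Without NDKO 5, which held the highest Pklr, Slc2a2, Gckr and Pygl and the lowest Gys2, G6pc and Pcx of its group, 4 genes were called, with Slc2a2 (-0.65) and Gys2 (0.78) added.

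On CDAHFD 0 of the 9 genes were called by limma, where 0.496% of all tested genes were called. Two-sided unadjusted p was under 0.05 for 2 genes, Pck1 and Fbp1, and limma voom on recovered fragments also called 0. Fbp1 was 267 ± 52.2 FPKM in HFWT and 367 ± 29.6 in HFKO without overlap, the only gene of the 9 whose groups stood apart, beside 4.98% of all tested genes. Its log2 difference was 0.48 (SE 0.11, FDR 0.0349 by limma), under the fold threshold, and reached it with median of ratios scaling (0.58, FDR 0.0263). Over all alternatives the Fbp1 difference ran from 0.30 to 0.58, with limma FDR from 0.0141 to 0.127. Pck1 was 514 ± 109 FPKM in HFWT and 801 ± 172 in HFKO (log2 0.64, SE 0.19, FDR 0.104 by limma). With quantile normalization it was called (0.87, FDR 0.0415). Over all alternatives the Pck1 difference ran from 0.46 to 0.87, with limma FDR from 0.0415 to 0.201. The remaining 7 genes had FDR 0.409 or above, and the widest of their 95% intervals, that of G6pc, ran from -0.39 to 0.89.

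The diet change differed between genotypes in 0 of the 9 genes by the interaction test in limma, where 0.647% of all tested genes were called. Unadjusted p was under 0.05 for 2 of them, Slc2a2 (log2 0.59, SE 0.21, FDR 0.170) and Pklr (0.88, SE 0.35, FDR 0.238), and limma voom called 0. The calls of Pklr and Slc2a2 in null livers and not in WT are thus not shown to be a difference between the genotypes. For the gluconeogenic enzymes the interaction ran from -0.41 (G6pc, 95% interval -1.32 to 0.50) to 0.21 (Fbp1, -0.11 to 0.53).

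Per length, Pck1 was the most abundant of the 9 transcripts in every group, followed by Fbp1 and Pcx, and Pklr was the least abundant in every group. In NDWT the ranges of Pck1 and Fbp1 overlapped, and in the other 3 groups they were apart. G6pc held rank 4 on control diet at 178 ± 60.0 FPKM in NDWT and 272 ± 72.6 in NDKO. On CDAHFD it held rank 7 in HFWT (54.6 ± 12.8) and rank 6 in HFKO (68.2 ± 26.2), among Gckr, Pygl and Gys2, from which its range was not separate. Slc2a2 held rank 4 on CDAHFD, and in HFKO its range lay above that of Gckr next below.

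Ratios of 2 genes in the same liver do not change when each library is scaled by 1 factor. Quantile normalization is not such a scaling and can change them. These ratios were chosen after the values were seen and were given no test. Pck1 over Pklr was 127 ± 35.8 in NDKO and 43.1 ± 22.6 in NDWT, and 29.3 ± 12.9 in HFKO and 18.6 ± 6.05 in HFWT (SD, n = 5). G6pc over Pklr was 22.6 ± 11.4 in NDKO and 7.94 ± 4.03 in NDWT, and 2.62 ± 1.44 in HFKO and 1.92 ± 0.463 in HFWT. Gluconeogenic over glycolytic transcript thus had its highest group mean in NDKO and its lowest in HFWT by both ratios, with control diet livers of a genotype above most or all of its CDAHFD livers.

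Gys2 over Pygl, synthesis over breakdown of glycogen, was 2.33 ± 1.07 in NDKO and 1.19 ± 0.356 in NDWT, and 0.987 ± 0.207 in HFKO and 0.774 ± 0.247 in HFWT. In NDKO it ran from 0.787 to 3.34, and NDKO 5 was the lowest. Pck1 over G6pc was 5.47 ± 0.854 in NDWT and 9.84 ± 2.81 in HFWT, and 6.21 ± 1.44 in NDKO and 13.3 ± 5.67 in HFKO. The G6pc share was thus smaller on the diet within the same livers, with the lowest HFWT ratio (7.03) above the highest NDWT ratio (6.71). Fbp1 over Pcx was 2.37 ± 0.226 in NDWT and 1.62 ± 0.386 in HFWT, and 2.66 ± 0.407 in NDKO and 2.04 ± 0.314 in HFKO.

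The mice of 1 group also differed from each other in a patterned way. After each group's mean was taken away, Pck1 and G6pc deviated together over the 20 livers (Pearson r = 0.66). The value was 0.81 over the 10 control diet and 0.53 over the 10 CDAHFD livers. The SD of Pck1 was 3.95% of its mean in NDKO and 32.4% in NDWT. The control diet value therefore follows mainly the NDWT livers. Gckr, Pklr and Pygl deviated together (r = 0.83 for Gckr with Pygl, 0.73 for Pklr with Pygl and 0.71 for Gckr with Pklr). Gys2 ran with Fbp1 (0.68) and against Gckr (-0.60), Pygl (-0.60) and Pklr (-0.53). These values share library scaling and are descriptions with no p. On control diet and on CDAHFD the values of Gys2 were -0.84 and -0.15 with Pklr, -0.80 and -0.21 with Pygl, 0.61 and 0.84 with Fbp1, 0.09 and 0.68 with Pck1, and 0.47 and -0.54 with Pcx, so no pattern by diet was common to these pairs.

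**Figure D3:**
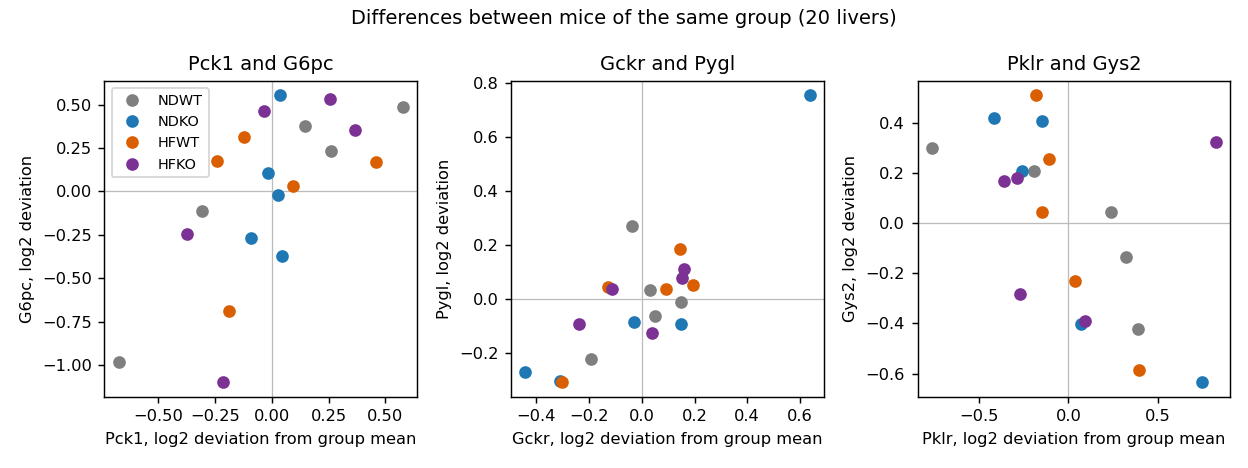
Log2 deviation of each of 20 livers from its group mean for 3 gene pairs, coloured by group. Over the 20 livers Pck1 and G6pc deviated together (r = 0.66, with little spread of Pck1 in NDKO). Gckr and Pygl did likewise (r = 0.83, with NDKO 5 far at the upper right). Gys2 ran against Pklr (r = -0.53, with HFKO 4 apart at the upper right).

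Among all tested genes, the same deviations were matched most closely as follows over the 20 livers. Pklr ran with Aifm3 (r = 0.92) and Thrsp (0.90), a lipogenic gene raised by carbohydrate feeding. G6pc ran with Btg2 and Slc25a25 (both 0.79), Pck1 with Gm17305 (0.82) and Slc25a51 (0.78), and Fbp1 with Gm15502 (0.84) and Slc27a2 (0.83). Pcx ran with Fam102a (0.93) and Atp9a (0.92), Gckr with Tmem14c and Qdpr (both 0.89), and Pygl with Sfxn5 and Hsd3b2 (both 0.90). For Slc2a2 they were Zfyve21 (0.83) and 5830428H23Rik (0.82), and for Gys2 Brap (0.85) and Il15ra (0.84). The closest match of each of the 9 genes was never another of the 9.

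Other steps of glucose synthesis and glycolysis were read from a list of 27 genes, all tested. With CDAHFD 5 were higher and 4 lower in WT, and 6 higher and 3 lower in null livers. Of all tested genes, 44.1% were higher and 4.62% lower in WT, and 41.9% and 4% in null livers. The list median was 0.02 in both genotypes, beside medians of 0.53 and 0.50 over all tested genes. Pck2, the mitochondrial form of the carboxykinase, rose from 1.21 ± 0.124 FPKM in NDWT to 6.80 ± 1.08 in HFWT (log2 2.39, SE 0.13, FDR 1.57e-11 by limma) and by 2.17 in null livers. It thus moved opposite to Pck1, at a level far below it. G6pc3, the form of glucose-6-phosphatase found in most tissues, likewise moved opposite to G6pc, from 2.87 ± 0.266 to 7.10 ± 1.28 FPKM in WT (log2 1.26, FDR 1.03e-07). Markers of other cell types moved as well, and their part in the Pck2 and G6pc3 changes was not tested. Values of these genes under other scalings are not given here. Gpd1, which links glycerol to the pathway, fell in WT (-1.20, FDR 5.94e-09), and Pfkl, the liver phosphofructokinase of glycolysis, rose (0.71 and 0.93).

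On control diet 3 of the 27 were higher in the null livers and 0 lower, beside 1.74% and 3.03% of all tested genes. Got1, the cytosolic aspartate aminotransferase that helps carry oxaloacetate out of mitochondria, was 91.6 ± 35.7 FPKM in NDWT and 359 ± 92.7 in NDKO (log2 2.00, SE 0.24, FDR 3.89e-05 by limma). Slc37a4, which brings glucose-6-phosphate to G6pc in the endoplasmic reticulum, was 42.9 ± 6.70 and 66.8 ± 17.6 FPKM (0.61, FDR 0.00832). Pfkfb1, the enzyme that makes and removes the regulator fructose 2,6-bisphosphate, gave 0.71 (FDR 0.00675). With CDAHFD Got1 fell to 72.5 ± 9.28 FPKM in HFKO (log2 -2.27, FDR 6.63e-08), and its diet change differed between genotypes (interaction -1.77, SE 0.33, FDR 0.0183). Gpd1 also differed between genotypes (interaction 0.79, FDR 0.0183). On CDAHFD 0 of the 27 were called between genotypes by limma.

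Of 29 genes of hormone signalling and transcriptional control of glucose, 3 were higher and 3 lower with CDAHFD in WT, and 6 higher and 3 lower in null livers. The shares over all tested genes were 44.1% higher and 4.62% lower in WT, and 41.9% and 4% in null livers. The list medians were -0.01 and -0.06, beside 0.53 and 0.50 over all tested genes. Creb3l3, a hepatocyte factor activated in fasting, fell in WT (201 ± 17.9 to 113 ± 5.77 FPKM, log2 -0.83, FDR 1.61e-08 by limma). Mlxipl, the carbohydrate response factor ChREBP that acts on Pklr, fell in WT by 0.58 on the log2 scale (FDR 6.33e-04). Srebf1, a lipogenic factor that insulin raises, rose from 8.46 ± 1.23 FPKM in NDWT to 24.2 ± 4.56 in HFWT, and by 1.24 on the log2 scale in null livers. Trib3, a stress-induced inhibitor of insulin signalling, rose by 1.28 in WT and 1.42 in null livers. Tat, an amino acid-degrading enzyme raised by glucagon and glucocorticoids, fell (-0.73 and -1.07). On control diet Ppargc1a, the coactivator of Pck1 and G6pc in fasting, was 1.16 ± 0.504 FPKM in NDWT and 2.84 ± 0.680 in NDKO (log2 1.28, SE 0.24, FDR 0.00219), and it rose with CDAHFD in WT to 1.99 ± 0.394 (0.81, FDR 0.00597). Sds, serine dehydratase, was 41.0 ± 7.51 and 135 ± 41.4 FPKM in NDWT and NDKO (1.68, FDR 6.13e-04). Ppargc1a and Sds were the 2 of the 29 called between genotypes on control diet. Both were higher, beside 1.74% of all tested genes higher and 3.03% lower.

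**Figure D4:**
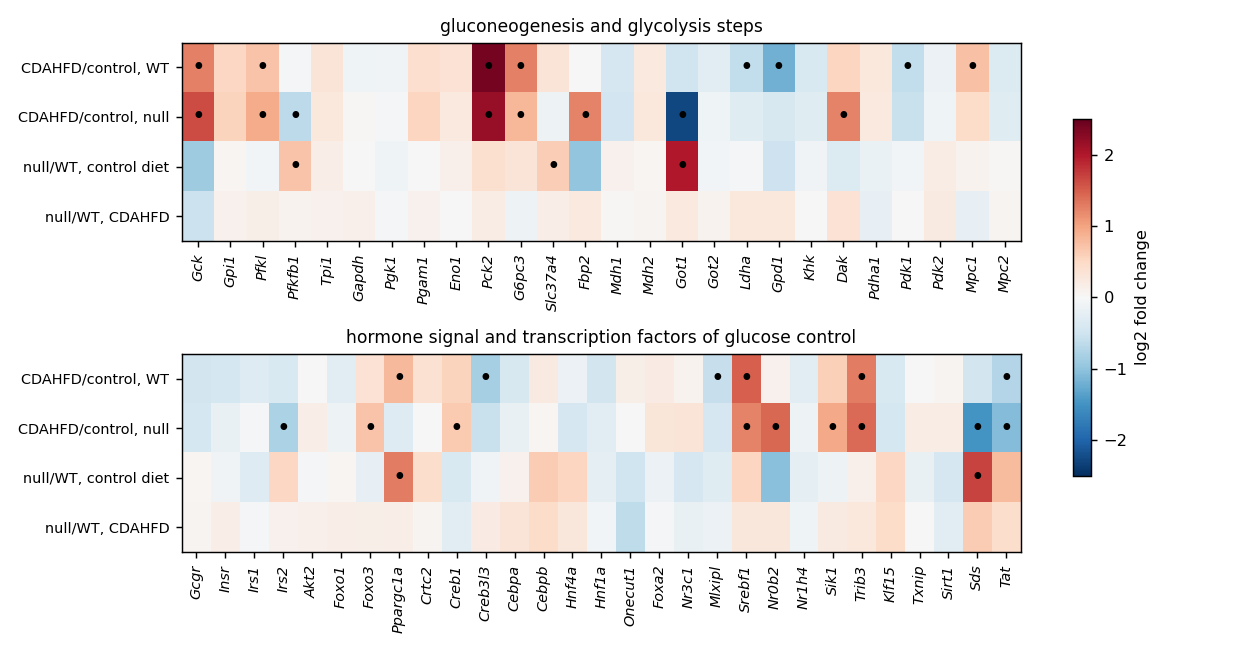
Log2 fold change (colour, blue lower and red higher) of genes of gluconeogenesis and glycolysis and of 29 genes of hormone signal and transcription factors in 4 comparisons, with a dot where called. Pck2 was higher in both diet rows, and Got1 was called higher in null livers on control diet and lower with CDAHFD in null livers.

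Glycogen turnover was read from 19 further genes. With CDAHFD 7 were higher and 1 lower in WT, and 8 higher and 1 lower in null livers. Of all tested genes, 44.1% were higher and 4.62% lower in WT, and 41.9% and 4% in null livers. The list medians were 0.37 and 0.34, below those of all tested genes (0.53 and 0.50). Between genotypes 0 of the 19 were called on either diet. Pygb, the brain form of the phosphorylase, rose from 1.59 ± 0.298 FPKM in NDWT to 8.44 ± 1.16 in HFWT (log2 2.34, FDR 1.97e-11 by limma), while Pygl did not pass the test. Gys1, the muscle form of the synthase, rose from 0.559 ± 0.0747 to 1.43 ± 0.200 FPKM (1.21, FDR 2.02e-06), against the fall of Gys2. The part of other cell types in the Pygb and Gys1 changes was not tested. Gyg, the primer of glycogen chains, rose by 1.94 in WT and 2.05 in null livers. Of 8 other hexose transporters 4 were tested, and 2 were higher and 1 lower with CDAHFD in both genotypes. The medians of these 4 were 0.43 and 0.57, beside the same medians and called shares over all tested genes. Slc2a1 (GLUT1) rose by 1.15 and 0.94 and Slc2a8 by 0.76 and 0.81, and Slc2a5, a fructose transporter, fell (-1.41 and -0.79).

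Genes that follow feeding state and time of day moved beside these results, and their part was not tested. Each list below stands beside these shares of all tested genes. With CDAHFD they were 44.1% higher and 4.62% lower in WT, and 41.9% and 4% in null livers. Between genotypes they were 1.74% higher and 3.03% lower on control diet, and 0.165% and 0.33% on CDAHFD. Of 10 fasting-induced genes, 5 were lower and 1 higher with CDAHFD in WT and 6 lower in null livers. Cyp4a10 fell by 2.76 and 2.38 on the log2 scale. On control diet Igfbp1, which insulin suppresses, was 45.2 ± 20.0 FPKM in NDWT and 188 ± 122 in NDKO (log2 1.98, SE 0.43, FDR 0.00485 by limma), and Lpin1 was also higher (1.30, FDR 7.19e-04). These were the 2 of the 10 called there. Lpin1 was higher in the null livers on CDAHFD as well (0.91, FDR 0.0401), where it was the 1 gene of the list called. The summed fasting-induced level ran from 4284 to 6789 FPKM in NDWT and from 3516 to 7320 in NDKO. It ran from 1063 to 2341 FPKM in HFWT and from 2016 to 2682 in HFKO, below every control diet liver. Of 9 feeding-induced genes tested, 0 were called between genotypes on either diet, and with CDAHFD 4 were higher and 3 lower in WT and 5 higher and 2 lower in null livers. The summed level of the 10 feeding-induced genes listed ran from 1041 to 1992 FPKM in NDWT and from 542 to 1596 in NDKO. It ran from 162 to 236 FPKM in HFWT and from 168 to 233 in HFKO, below every control diet liver. A sum follows its most abundant genes, while the calls count each gene once. Of the clock genes that peak with Dbp, Per1 was higher (1.13) and Bhlhe41 (-1.47) and Per2 (-0.77) lower in NDKO than in NDWT, and 4 of 9 in WT and 6 of 9 in null livers were higher with CDAHFD. Of all tested genes, 44.1% in WT and 41.9% in null livers were higher with CDAHFD. Of 5 clock genes of the Arntl phase, 0 were called between genotypes on either diet. With CDAHFD 1 of these 5 was higher and 1 lower in WT, and 0 higher and 1 lower in null livers. Their summed level ran from 29.8 to 41.5 FPKM in NDWT and from 16.8 to 33.0 in HFWT. In NDKO it ran from 28.5 to 42.8 FPKM and in HFKO from 14.5 to 24.8. Among cell type markers on control diet, 2 hepatocyte markers (Cps1 and Hpd) and 1 macrophage marker were higher in the null livers, and 1 stellate marker was lower.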

How the data were processed

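The authors extracted liver RNA with Trizol, made poly(A) libraries with a directional kit, sequenced read pairs on an Illumina HiSeq instrument and processed them with QuickRNASeq. The submitters' processing notes name STAR 2.5.2, featureCounts and Subread 1.5.1. The deposited table holds FPKM per gene as the authors computed them, with no further normalization between libraries. The notes name the build GRCh38, but the table's coordinates are mouse GRCm38: 99.8% of the 37607 identifiers shared with GENCODE M21 lay over the same gene. The series text gives the right medial lobe and the methods the right lateral lobe. Samples were grouped by their labels.

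Genes with FPKM above 0.5 in at least 5 of 20 libraries (14524) were tested with limma 3.58.1 (R 4.3.3) on log2(FPKM + 0.1), with 1 mean per group, moderated variances with a trend, and two-sided Benjamini-Hochberg adjustment over all tested genes. Fold changes are on this scale, which understates changes of low genes. Calls needed FDR under 0.05 and an absolute log2 fold change above 0.58. Labels number each library as a mouse of its group; shared litters or cages were not stated. Whole fragments recovered from FPKM gave each library's depth: all checked values came out whole (100% within 0.06 of a fragment). The fit was tested on simulated data. Genes and gene lists were chosen with earlier results of these data known. Named genes are all members and, per list and comparison, at most the 6 called genes with the lowest FDR, from which the text names some; 1 listed gene is not reported here by name. Alternatives covered pseudocount, filters, scaling, variance model, samples fitted, limma voom on recovered fragments, the replicate block and leaving out each library. Promoter sequences are RefSeq's (GRCm38.p6).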

Additional observations from a re-analysis of the deposited data

Results flagged for a closer look

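Each of the 9 genes was examined in each group of 5 livers for a library standing apart (36 groups in all), and chance alone flags about 1 in 20 such groups. Pklr was 52.333 FPKM in HFKO 4, where the gap to the next liver was 0.7104 of the group's range. Pygl was 93.719 FPKM in NDKO 5, where the gap was 0.849 of the range. These were the 2 groups found.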

How the results depend on the processing

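The count of called genes with CDAHFD in WT (5) fell to 3 with quantile normalization and was 4 to 5 as single libraries were left out. With CDAHFD in null livers it stayed at 7 as single libraries were left out, and between genotypes on CDAHFD and for the interaction it stayed at 0. Between genotypes on control diet (2) it was 1 with no filter on low values, with only the groups compared in the fit and with the replicate block, 0 with quantile normalization, and 1 to 4 as single libraries were left out (1 without NDWT 1, NDWT 3, NDKO 2, NDKO 3 or NDKO 4, and 4 without NDKO 5). Between genotypes on CDAHFD (0) it was 1 with median of ratios scaling, with quantile normalization and with no fold threshold. The other 62 counts under settings that kept all libraries stayed within 1.5 times. The cause of these moves was not tested.

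Some small changes turned direction. With median of ratios scaling, log2 changes with CDAHFD were -0.40 for Gckr, -0.27 for Pklr, -0.28 for Slc2a2 and -0.55 for Pygl in WT, and -0.42 for Gckr and -0.33 for Pygl in null livers, and Pygl gave 0.083 between genotypes on CDAHFD. With quantile normalization Pygl gave -0.080 with CDAHFD in WT and 0.019 between genotypes on CDAHFD, and the interaction was -0.0074 for Pcx and 0.25 for Pck1. Scaled to hepatocyte markers, Pcx gave -0.073 between genotypes on control diet, and Pcx -0.055, Pklr -0.12 and Slc2a2 -0.13 on CDAHFD. As single libraries were left out, ranges that crossed 0 were -0.048 to 0.085 for Pygl with CDAHFD in WT, -0.26 to 0.014 for Gckr between genotypes on control diet, -0.096 to 0.027 for Pygl, -0.15 to 0.15 for Pklr and -0.051 to 0.11 for Slc2a2 between genotypes on CDAHFD, and -0.077 to 0.050 for Pcx and -0.16 to 0.11 for Gckr in the interaction. None of these was a called value. Over all genes called with CDAHFD in WT, 6412 were higher and 671 lower, beside 3299 and 2242 with median of ratios scaling, 2721 and 2309 with quantile normalization, and 10142 and 316 with scaling to hepatocyte markers.

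Replicate numbers did not pair the livers: deviations of libraries with the same number in groups compared correlated at -0.13 to 0.08 over 20 pairs, 0 of them over 0.1. With the replicate block the control diet genotype count was 1 (Pklr lost), and every other count of called genes was as without it.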
